A study of Mus musculus with 6 samples.

Results

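The 36 genes described here drive or carry out cell division: the cyclins and cyclin-dependent kinases (CDKs) of the cell cycle, 2 CDK inhibitors, the regulators E2F1, FOXM1 and EZH2, the MCM helicase, enzymes of DNA synthesis, and kinases and checkpoint proteins of mitosis. Each was read from the probe sets (groups of probes for 1 transcript) that carry a single gene symbol in the array's annotation, and the probe set with the highest mean signal over the 6 arrays stood for the gene. By this rule 35 of the 36 genes had a value, of 18193 genes in all. Ccnb1 had no probe set of that kind and was not analysed here.

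RNA of whole hearts from male mice aged 2 months, all labelled with a B6 background, was measured on Affymetrix mouse arrays, with 2 arrays for each of 3 kinds of mice. RKIP-transgenic mice expressed RKIP, an inhibitor of RAF kinase and of G-protein-coupled receptor kinases (GRKs), under the alpha-MHC promoter, which is active in heart muscle cells. GRK-Inh-transgenic mice made a peptide inhibitor of GRKs in the myocardium, and B6 mice labelled wild type were the controls. Both transgenes act in heart muscle cells, whereas the RNA came from all cells of the heart, so that fewer cells of a type and less RNA per cell cannot be told apart. Whether each array is a separate animal is not stated in the labels, so p-values reflect the spread between these arrays alone, which may be technical.

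Cyclins of the D type pair with the kinases CDK4 and CDK6 early in the cycle and release E2F factors from the retinoblastoma proteins. E2F factors then switch on cyclin E, the MCM helicase that opens DNA at origins, and the enzymes that make nucleotides and DNA. Cyclins A and B with CDK1, and the Aurora and Polo kinases, carry the cell through mitosis, and the CDK inhibitors hold it back. Heart muscle cells of the mouse largely leave the cycle soon after birth. Among dividing cells of a young adult heart, other cell types such as endothelial cells, fibroblasts and immune cells are prominent.

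The hearts carried their defining markers: all 8 heart muscle markers examined (among them Myh6, Tnnt2 and Ttn) had mean signals between 25346 and 37294. Signals are linear, as scaled by the authors, and a gene was tested if its mean log2 value reached that of the median probe set, a signal of about 50.2. Median signals per array lay between 50.3 and 54.99. Of the 35 measured genes, 26 passed this level and 9 did not. The 9 were Tyms, Ccnb2, Cdk1, Bub1, Bub1b, Aurka, Aurkb, Plk1 and Birc5, and the same 9 had mean signals under 50. Nearest below the level were Ccnb2 and Plk1, with mean signals of 48.0 and 45.7, and nearest above it were Top2a and Ccna2, with 53.98 and 56.2. Differences are log2 fold changes of the signal plus 50 with the standard error (SE) of a limma model over the 6 arrays, and a gene was called at an adjusted p under 0.05, with Benjamini-Hochberg adjustment over the 11254 genes tested.

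In RKIP-transgenic against B6 control hearts, the D-type cyclin gene Ccnd2, its kinase partner Cdk6 and the helicase gene Mcm7 fell, and the other 23 tested members did not pass. The members thus gave 0 higher and 3 lower calls of 26, beside 5.32% of all tested genes called higher and 5.52% called lower. At an unadjusted p under 0.05, limma gave 1 higher and 7 lower. In GRK-Inh-transgenic against B6 control hearts, Ccnd2 was the single call, with 0 higher and 1 lower of 26, beside 5.85% and 7.25% of all tested genes, and an unadjusted p under 0.05 gave 2 higher and 2 lower. The 2 higher were Ccnd1 and Top2a, and Top2a passed the filter through its GRK-Inh arrays. Between the lines, Cdkn2c, which encodes a CDK4 and CDK6 inhibitor, was higher and the proliferation marker Mki67 was lower in the RKIP line than in the GRK-Inh line, 1 of 26 each way, beside 4.47% and 4.37% of all tested genes. The lower calls in RKIP-transgenic hearts were 11.5% of the tested members, while a single call is 3.85% of them, near or below the shares of all genes. Both transgenic groups were set against the same control arrays. The members that passed had a median log2 fold change of -0.14 (RKIP-transgenic over B6 control), -0.09 (GRK-Inh-transgenic over B6 control) and -0.10 (RKIP-transgenic over GRK-Inh-transgenic), where all tested genes had medians of -0.017, -0.031 and 0.021.

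**Figure D1:**
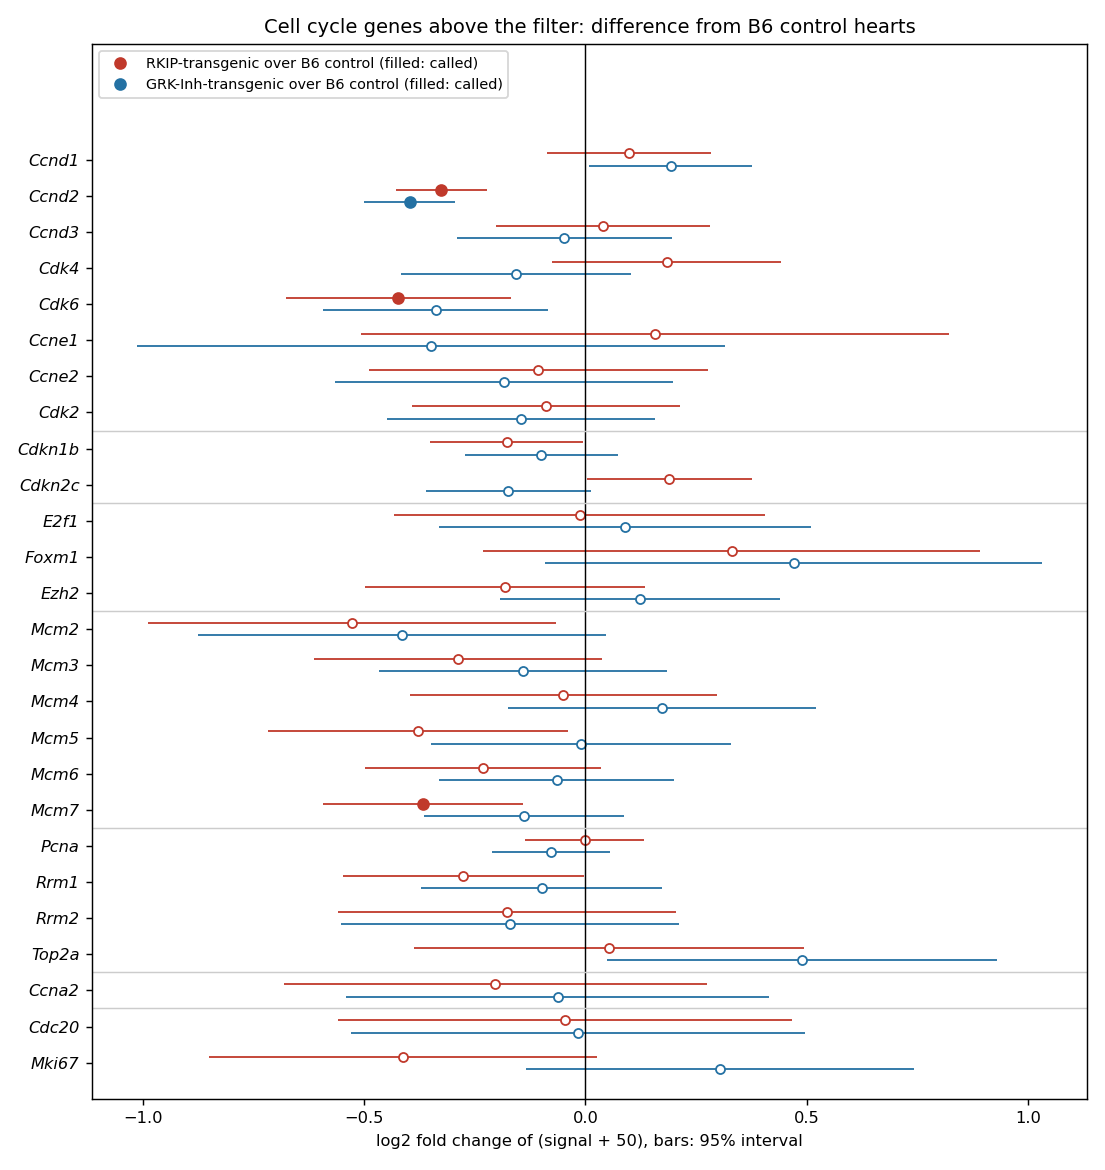
Log2 fold change of the signal plus 50 for the 26 cell cycle genes above the filter level, RKIP-transgenic over B6 control (red) and GRK-Inh-transgenic over B6 control (blue), with unadjusted 95% intervals from the limma model. Filled points are called: Ccnd2 in both comparisons, and Cdk6 and Mcm7 in RKIP-transgenic hearts, all to the left of 0, and the grey lines part the genes by role.

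Among the genes of G1, Ccnd2 set the transgenic hearts apart from the controls. Its signal was 3447 and 3472 in RKIP-transgenic hearts, 3338 and 3242 in GRK-Inh-transgenic hearts, and 4277 and 4422 in B6 control hearts. All 4 arrays of the transgenic lines lay below both control arrays, and replicates lay close together. The fall was -0.33 ± 0.05 on the log2 scale in RKIP-transgenic hearts (adjusted p = 0.00138 by limma) and -0.40 ± 0.05 in GRK-Inh-transgenic hearts (adjusted p = 0.000275). These are 0.795 and 0.757 times the control's mean signal. The lines differed from each other by 0.07 (RKIP-transgenic minus GRK-Inh-transgenic, interval -0.03 to 0.17, adjusted p = 0.404).

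Ccnd2 is covered by 7 probe sets, which share the same RNA and are not replicates. In a fit over all probe sets, 4 of the 7 fell in RKIP-transgenic hearts and all 7 fell in GRK-Inh-transgenic hearts, and the log2 fold changes ran from -0.44 to -0.10 and from -0.62 to -0.32. For scale, 3.96% of all tested probe sets were called higher and 3.63% lower in RKIP-transgenic hearts, and 4.94% and 5.38% in GRK-Inh-transgenic hearts. Over the 50 tested probe sets of the members, 1 was called higher and 5 lower in RKIP-transgenic hearts, and 0 higher and 8 lower in GRK-Inh-transgenic hearts. In the direct comparison of the lines, 2 of these 50 were higher in RKIP-transgenic hearts and 0 lower, beside 2.67% and 3.07% of all tested probe sets.

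Cdk6 had a signal of 213 and 228 in RKIP-transgenic hearts, 252 and 223 in GRK-Inh-transgenic hearts, and 317 and 309 in B6 control hearts. The 4 arrays of the transgenic lines were again below both control arrays. The fall passed in RKIP-transgenic hearts (-0.42 ± 0.12, adjusted p = 0.0404 by limma), while GRK-Inh-transgenic hearts had -0.34 ± 0.12 (adjusted p = 0.0805). The call rested on small margins and was lost without any 1 of the 4 arrays compared (adjusted p 0.0282 to 0.172 over the alternatives). A second probe set of Cdk6 gave 238 and 224 in RKIP-transgenic hearts, 141 and 152 in GRK-Inh-transgenic hearts, and 385 and 328 in B6 control hearts, with both GRK-Inh arrays lowest and both control arrays highest. In the fit over all probe sets it fell in both lines, with log2 fold changes of -0.53 ± 0.12 in RKIP-transgenic hearts (adjusted p = 0.0277) and -1.04 ± 0.12 in GRK-Inh-transgenic hearts (adjusted p = 0.000456). That probe set was also higher in the RKIP line than in the GRK-Inh line (0.51 ± 0.12, adjusted p = 0.0375). The probe set that stood for the gene did not show this difference (-0.08, interval -0.34 to 0.17), so the probe sets of Cdk6 disagreed on how the lines compare. The third probe set of Cdk6 did not share the fall in RKIP-transgenic hearts (0.0059 over B6 control). It had -0.22 in GRK-Inh-transgenic over B6 control hearts and was called in neither.

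The other D-type cyclins had no call. Ccnd1, a cyclin induced by growth signals, had signals of 1659.6 and 1478 in RKIP-transgenic hearts, 1547 and 1814 in GRK-Inh-transgenic hearts, and 1427 and 1493 in B6 control hearts. Its values in the transgenic lines lay from just above the lower control array upward, with log2 fold changes of 0.10 in RKIP-transgenic hearts (adjusted p = 0.51) and 0.19 in GRK-Inh-transgenic hearts (adjusted p = 0.158). Of its 3 probe sets, 1 other was called higher in RKIP-transgenic hearts (0.30 ± 0.08, adjusted p = 0.0388), the single higher call among the members' probe sets against control. Ccnd3 gave 334 and 329.7 in RKIP-transgenic hearts, 287 and 333 in GRK-Inh-transgenic hearts, and 332 and 311 in B6 control hearts, and its groups overlapped. For this gene the intervals were -0.20 to 0.28 in RKIP-transgenic hearts and -0.29 to 0.19 in GRK-Inh-transgenic hearts.

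Cdk4, the other kinase of D-type cyclins, had 407 and 439 in RKIP-transgenic hearts, 321 and 326 in GRK-Inh-transgenic hearts, and 413 and 325 in B6 control hearts. The RKIP arrays lay above both GRK-Inh arrays, and the control arrays spanned the range between (0.34 ± 0.12, RKIP-transgenic minus GRK-Inh-transgenic, adjusted p = 0.107). Other probe sets of Cdk4 had -0.16 and -0.14 in RKIP-transgenic over B6 control hearts, where the one that stood for the gene had 0.18. Between the lines these others had 0.09 and -0.06, and none was called. The cyclin E genes Ccne1 and Ccne2 and their kinase gene Cdk2 were not called in any comparison. Ccne1 had signals of 9.88 to 79.8 over the 6 arrays, with 1 GRK-Inh array at the low end and the other at 76.6. Its interval for GRK-Inh-transgenic over B6 control, -1.01 to 0.32, was the widest of the members in that comparison. The GRK-Inh value thus rests on which array is read. Without GRK-Inh array 2 the GRK-Inh line is the single array at 9.88, under the filter level and assumed to vary like the other groups, and the comparison of the lines then passed (adjusted p = 0.0419, against 0.354 with all arrays and adjusted p 0.0419 to 0.962 over the alternatives). As leaving out the higher array fixes the direction, this is no evidence of a difference. Ccne2 ranged from 86.9 to 129 and Cdk2 from 162 to 203.

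**Figure D2:**
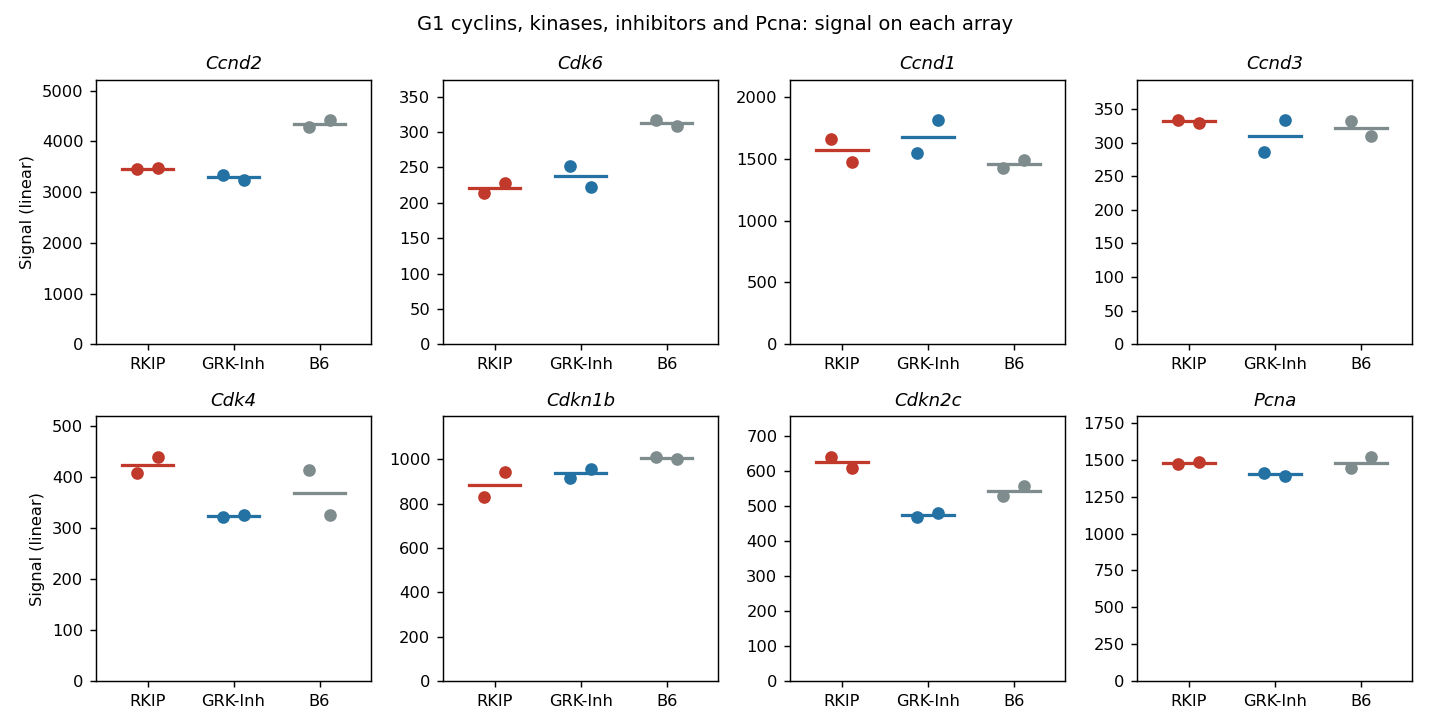
Linear signal of 8 members on each array (points) with the group mean (line), for hearts of the RKIP line, of the GRK-Inh line and of B6 controls. Ccnd2 and Cdk6 lie below both control arrays on all 4 arrays of the transgenic lines, Cdkn2c is highest in RKIP-transgenic and lowest in GRK-Inh-transgenic hearts, and the Pcna arrays lie between 1389.8 and 1521.

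Of the 2 CDK inhibitor genes, Cdkn2c differed between the lines and Cdkn1b was not called. Cdkn2c had 640.1 and 609 in RKIP-transgenic hearts, 469 and 479 in GRK-Inh-transgenic hearts, and 527 and 556 in B6 control hearts. Every RKIP array was above both control arrays and every GRK-Inh array below them, and no groups overlapped. Against control neither difference passed (0.19 ± 0.08, adjusted p = 0.193 in RKIP-transgenic hearts, and -0.17 ± 0.08, adjusted p = 0.208 in GRK-Inh-transgenic hearts). The direct comparison of the lines did (0.36 ± 0.08, RKIP-transgenic minus GRK-Inh-transgenic, adjusted p = 0.024), and this call was lost without any 1 of the 4 arrays of the lines and when the variance was given no trend with signal (adjusted p 0.0184 to 0.134). Cdkn1b, which encodes an inhibitor of cyclin E and CDK2 complexes, gave 829 and 944 in RKIP-transgenic hearts, 916 and 958 in GRK-Inh-transgenic hearts, and 1012 and 1003 in B6 control hearts. All 4 arrays of the transgenic lines lay below the controls, with no call (-0.18 ± 0.08, adjusted p = 0.187 in RKIP-transgenic hearts, and -0.10 ± 0.08, adjusted p = 0.45 in GRK-Inh-transgenic hearts). A second probe set of Cdkn1b went the other way, also without a call. Over B6 control it had 0.25 in RKIP-transgenic and 0.13 in GRK-Inh-transgenic hearts.

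Of the regulators, E2f1, Foxm1 and Ezh2 were not called. E2f1, a transcription factor that activates genes of DNA synthesis, stayed close to the filter level at 48.2 to 71.8. Foxm1, which drives genes of mitosis, had 81.7 and 69.6 in RKIP-transgenic hearts, 103 and 74.9 in GRK-Inh-transgenic hearts, and 25.1 and 82.7 in B6 control hearts, and its control arrays lay far apart. Ezh2, a histone methyltransferase and E2F target, gave 143 and 134 in RKIP-transgenic hearts, 168 and 198 in GRK-Inh-transgenic hearts, and 179.6 and 149 in B6 control hearts. The RKIP arrays were below all others, but the difference between the lines did not pass (-0.30 ± 0.14, adjusted p = 0.234).

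The MCM genes encode the subunits of the replicative helicase. On the probe sets that stood for them, all 6 had their lowest group mean in RKIP-transgenic hearts, and 1 of the 6 was called. Mcm7 had signals of 300.2 and 303 in RKIP-transgenic hearts, 354 and 369.9 in GRK-Inh-transgenic hearts, and 382 and 427 in B6 control hearts. The 3 groups did not overlap, with RKIP arrays lowest and control arrays highest. The fall in RKIP-transgenic hearts was -0.37 ± 0.10 (adjusted p = 0.0439 by limma), a call that held in 6 of 17 alternatives and was lost without any 1 of the 6 arrays (adjusted p 0.0313 to 0.214). In GRK-Inh-transgenic hearts the value was -0.14 ± 0.10 (adjusted p = 0.412). The other 3 probe sets of Mcm7 gave -0.01, 0.02 and 0.09 for RKIP-transgenic over B6 control, and in the fit over all probe sets none of the 4 was called (adjusted p = 0.0582 for the one that stood for the gene). Of the 4, 2 were positive and 2 negative for RKIP-transgenic over GRK-Inh-transgenic, from -0.23 to 0.56. The order of the groups thus differed between the probe sets of Mcm7.

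Mcm5 gave 73.2 and 76.0 in RKIP-transgenic hearts, 114 and 108 in GRK-Inh-transgenic hearts, and 116 and 107 in B6 control hearts. Its RKIP arrays were below the rest, but the test did not pass (-0.38 ± 0.15, adjusted p = 0.153), and GRK-Inh-transgenic hearts had -0.01 over B6 control (interval -0.35 to 0.33). Mcm2 had the largest estimate of the family and the widest spread, at 179.9 and 266 in RKIP-transgenic hearts, 280.2 and 207 in GRK-Inh-transgenic hearts, and 268 and 425 in B6 control hearts (-0.53 ± 0.21 in RKIP-transgenic hearts, adjusted p = 0.143). Its RKIP arrays lay below both controls, while GRK-Inh and control arrays overlapped. Mcm3 (-0.29), Mcm6 (-0.23) and Mcm4 (-0.05) were also on the negative side in RKIP-transgenic over B6 control without passing. On the probe sets that stood for the genes, the family had a median of -0.33 in RKIP-transgenic and -0.10 in GRK-Inh-transgenic over B6 control hearts. Other tested probe sets of Mcm3 and Mcm6 had -0.095 and -0.08 in RKIP-transgenic over B6 control hearts. In GRK-Inh-transgenic over B6 control hearts they turned positive, at 0.18 and 0.24, without a call. Those of Mcm2 (-0.32 and -0.26) and Mcm4 (-0.08 and 0.06) kept the signs of the probe sets that stood for the genes. Mcm4 gave 341 and 252 in RKIP-transgenic hearts, 299 and 411 in GRK-Inh-transgenic hearts, and 296 and 316 in B6 control hearts, with overlapping groups.

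**Figure D3:**
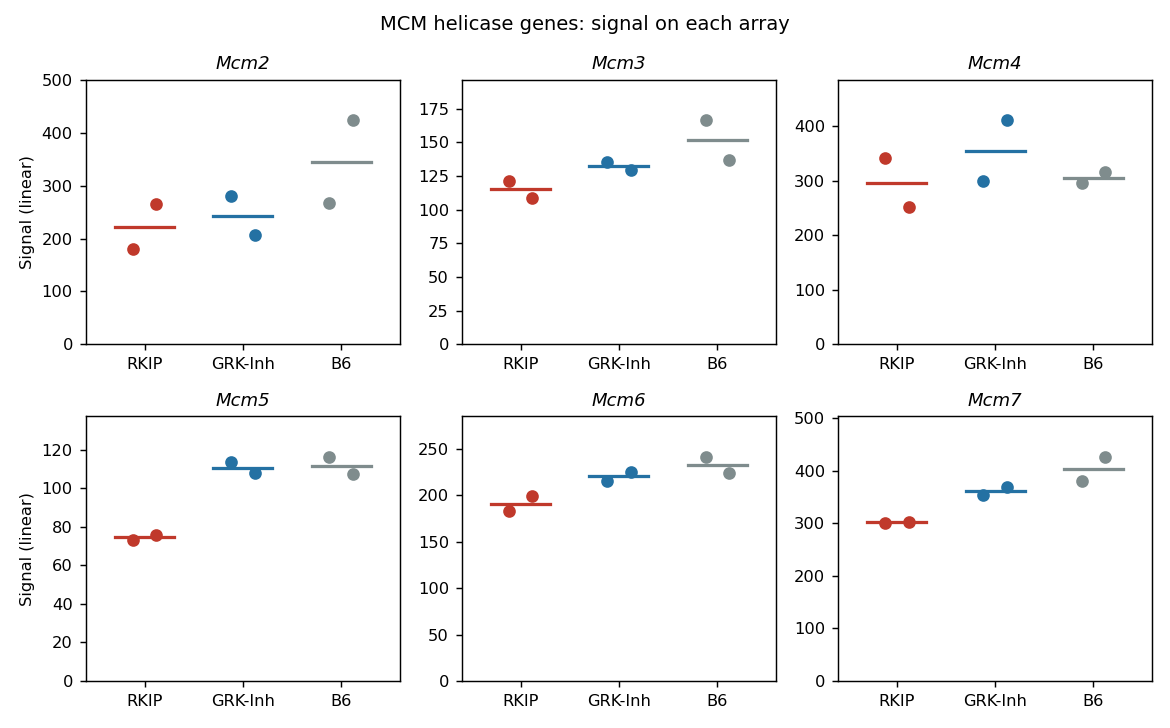
Linear signal of the 6 MCM helicase genes on each array (points) with the group mean (line), for hearts of the RKIP line, of the GRK-Inh line and of B6 controls. The RKIP mean is the lowest in each panel, the Mcm7 groups do not overlap, and the spread of Mcm2 and Mcm4 between replicates is wide.

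Genes of DNA synthesis and nucleotide supply had no call. Pcna, the sliding clamp that holds DNA polymerase on its template, had signals of 1469 and 1488 in RKIP-transgenic hearts, 1412 and 1389.8 in GRK-Inh-transgenic hearts, and 1442 and 1521 in B6 control hearts. Its intervals, -0.14 to 0.13 in RKIP-transgenic and -0.21 to 0.06 in GRK-Inh-transgenic over B6 control hearts, were the narrowest of the tested members after those of Ccnd2. Rrm1, the large subunit of ribonucleotide reductase, gave 245 and 230.2 in RKIP-transgenic hearts, 301 and 250.4 in GRK-Inh-transgenic hearts, and 279.7 and 317 in B6 control hearts. Both RKIP arrays lay below all others (-0.28 ± 0.12 against control, adjusted p = 0.194). Another tested probe set of Rrm1 went the other way without a call, with 0.18 in RKIP-transgenic and 0.24 in GRK-Inh-transgenic over B6 control hearts. Rrm2, the subunit made mainly in S phase, ranged from 105 to 161, and 5 of its 6 arrays lay between 105 and 113. Tyms, which makes thymidylate, was under the filter level, with signals of 2.77 to 33.9.

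Members of this set are textbook targets of E2F factors and of the complexes that act on mitotic genes, so the promoters of the called members with an entry in the RefSeq promoter table are shown. Each run covers 250 bases before to 50 bases after an annotated start (build GRCm38.p6), 5′ to 3′ on the gene's strand. Capitals mark E2F site cores (TTGGCGC, and with the same meaning TTCCCGC, as well as the form TTCGCGC), the cell cycle homology region (TTTGAA) and CCAAT boxes (CCAAT), each on either strand. Mcm7 and Cdkn2c have 2 starts each.
Mcm7, chr5:138171834-138172133, minus strand: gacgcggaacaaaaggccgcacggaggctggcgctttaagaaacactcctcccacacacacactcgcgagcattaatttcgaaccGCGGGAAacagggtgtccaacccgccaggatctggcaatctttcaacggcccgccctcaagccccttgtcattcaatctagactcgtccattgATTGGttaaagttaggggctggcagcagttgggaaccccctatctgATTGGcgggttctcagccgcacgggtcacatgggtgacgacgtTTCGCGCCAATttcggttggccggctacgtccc
Mcm7, chr5:138171217-138171516, minus strand: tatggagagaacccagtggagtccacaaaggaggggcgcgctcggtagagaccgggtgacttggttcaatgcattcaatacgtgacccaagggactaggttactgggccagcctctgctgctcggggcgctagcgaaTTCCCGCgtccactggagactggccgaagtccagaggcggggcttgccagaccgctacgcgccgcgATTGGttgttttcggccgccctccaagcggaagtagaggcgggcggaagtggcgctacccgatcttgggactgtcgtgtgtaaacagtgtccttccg
Cdkn2c, chr4:109666707-109667006, minus strand: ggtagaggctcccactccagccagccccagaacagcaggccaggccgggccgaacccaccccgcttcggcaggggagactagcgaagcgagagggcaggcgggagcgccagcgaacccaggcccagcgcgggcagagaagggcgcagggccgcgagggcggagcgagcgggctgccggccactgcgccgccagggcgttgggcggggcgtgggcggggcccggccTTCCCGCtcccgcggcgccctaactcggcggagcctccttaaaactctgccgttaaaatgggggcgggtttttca
Cdkn2c, chr4:109665323-109665622, minus strand: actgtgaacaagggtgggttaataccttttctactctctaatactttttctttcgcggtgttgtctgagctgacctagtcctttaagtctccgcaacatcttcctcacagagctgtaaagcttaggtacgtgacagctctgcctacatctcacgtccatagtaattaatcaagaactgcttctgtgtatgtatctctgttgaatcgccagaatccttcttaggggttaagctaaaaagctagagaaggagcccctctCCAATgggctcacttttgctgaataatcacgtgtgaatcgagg
Cdk6, chr5:3343643-3343942, plus strand: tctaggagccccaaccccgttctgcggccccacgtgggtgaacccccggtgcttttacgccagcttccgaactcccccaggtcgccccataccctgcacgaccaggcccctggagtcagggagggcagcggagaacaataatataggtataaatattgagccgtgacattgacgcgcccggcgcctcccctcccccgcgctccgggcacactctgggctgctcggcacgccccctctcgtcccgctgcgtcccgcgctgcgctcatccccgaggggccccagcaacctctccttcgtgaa
Mki67, chr7:135716330-135716629, minus strand: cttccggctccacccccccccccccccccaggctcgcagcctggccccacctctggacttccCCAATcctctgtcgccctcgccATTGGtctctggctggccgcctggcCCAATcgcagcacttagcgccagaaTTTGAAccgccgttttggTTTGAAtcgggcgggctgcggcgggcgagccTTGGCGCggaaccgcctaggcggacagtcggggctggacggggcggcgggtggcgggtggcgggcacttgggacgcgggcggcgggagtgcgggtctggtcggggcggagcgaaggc
The upstream Mcm7 start held 3 E2F core matches, at positions -165, +18 and +21 of their first base from the start. Those at +18 and +21 overlap each other on opposite strands, and both overlap a CCAAT box that begins at +24. The Mki67 window held 1 E2F core at -67, 2 cell cycle homology regions at -116 and -98, and 3 CCAAT boxes. The Cdkn2c windows held 1 E2F core at -25 and, at the other start, 1 CCAAT box at +8. None of these letters was in the Cdk6 window.

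Promoters were found for 29 of the 36 listed genes, and not for Ccnd1, Ccnd2, Ccne2, Foxm1, Mcm4, Ccna2 and Aurkb. Of the 29 genes, 11 (37.9%) held an E2F core in at least 1 window, against 9.2% of the 27025 genes in the table. The cell cycle homology region was in 9 of the 29 (31%, against 20.2%) and a CCAAT box in 23 (79.3%, against 41.1%). Per window, the shares over all 32851 promoters of the same length were 8.07%, 17.9% and 37.4%. A match describes the letters and is not a measured binding site. Of the MCM genes with a promoter, Mcm3, Mcm5, Mcm6 and Mcm7 held E2F core matches (3, 3, 5 and, over both starts, 4), and Mcm2 held a cell cycle homology region and a CCAAT box. Mcm3, Mcm5, Mcm6 and Mcm7 each had some E2F core matches that overlap on opposite strands. These were counted separately, so distinct sites are fewer.

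Most of the mitotic members lay at the low end of the arrays' range, where values say little about change. Over the 9 members under the filter level, signals ran from 1.28 to 66.8 in RKIP-transgenic, 1.49 to 59.8 in GRK-Inh-transgenic and 1.94 to 49.1 in B6 control hearts. Cdk1, the kinase that drives entry into mitosis, had 8.74 and 23.2 in RKIP-transgenic hearts, 8.71 and 28.0 in GRK-Inh-transgenic hearts, and 6.95 and 31.2 in B6 control hearts, so that replicates of each group differed more than the groups did. The checkpoint kinase gene Bub1 had signals of 1.94 to 29.0, its relative Bub1b 2.44 to 35.6, and Aurkb, a kinase of chromosome segregation, 1.49 to 32.1. None of these 3 passed the filter. Ccnb2, a mitotic cyclin, had 66.8 and 39.9 in RKIP-transgenic hearts, 35.7 and 59.8 in GRK-Inh-transgenic hearts, and 45.0 and 40.9 in B6 control hearts, with overlapping groups. Plk1, the Polo kinase, gave 65.6 and 52.2 in RKIP-transgenic hearts, 44.5 and 42.8 in GRK-Inh-transgenic hearts, and 20.0 and 49.1 in B6 control hearts, and only its RKIP arrays lay above both control arrays. Ccna2, the cyclin of S phase and G2, gave 64.2 and 32.9 in RKIP-transgenic hearts, 69.8 and 46.1 in GRK-Inh-transgenic hearts, and 66.4 and 57.9 in B6 control hearts. Cdc20, an activator of the anaphase-promoting complex, had 109.6 and 73.7 in RKIP-transgenic hearts, 125 and 67.5 in GRK-Inh-transgenic hearts, and 75.6 and 118 in B6 control hearts. For both Ccna2 and Cdc20 the groups overlapped and no comparison was called.

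Mki67, which encodes the proliferation antigen Ki-67, was higher on both GRK-Inh arrays than on either RKIP array. Its signal was 42.1 and 37.2 in RKIP-transgenic hearts, 109 and 86.0 in GRK-Inh-transgenic hearts, and 53.4 and 87.6 in B6 control hearts. Between the lines the difference was -0.72 ± 0.20 (RKIP-transgenic minus GRK-Inh-transgenic, adjusted p = 0.0497 by limma). The call stood at the edge of the threshold and held in 5 of 16 alternatives in which the gene was tested (adjusted p 0.0377 to 0.247). It was lost without any 1 of the 4 arrays of the lines and without B6 array 2. Against control neither line passed (-0.41, adjusted p = 0.227 in RKIP-transgenic hearts, and 0.30, adjusted p = 0.353 in GRK-Inh-transgenic hearts). The gene passed the filter through the GRK-Inh and control arrays, while its RKIP mean was 39.6 ± 3.45 (SD, n = 2), below the filter level.

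Top2a, the DNA topoisomerase of dividing cells, had 52.4 and 35.8 in RKIP-transgenic hearts, 84.2 and 69.9 in GRK-Inh-transgenic hearts, and 49.0 and 32.5 in B6 control hearts. Its GRK-Inh arrays lay above all others and no comparison was called. The gene passed the filter through the GRK-Inh arrays, with means of 44.1 in RKIP-transgenic hearts, 77.1 in GRK-Inh-transgenic hearts and 40.8 in B6 control hearts. Its test is therefore not read as a result, though the gene counts among the 26 tested members and in their summaries. The other 2 probe sets of Top2a did not set the GRK-Inh arrays above all others. Aurka, a kinase of the spindle poles, and Birc5, the survivin gene, are singled out here after their values were seen, because both GRK-Inh arrays lay above all others for them as well. No test of them is read as a result. Aurka gave 11.6 and 19.7 in RKIP-transgenic hearts, 38.3 and 53.4 in GRK-Inh-transgenic hearts, and 7.14 and 5.85 in B6 control hearts. Birc5 gave 1.28 and 4.87 in RKIP-transgenic hearts, 41.0 and 35.8 in GRK-Inh-transgenic hearts, and 15.2 and 3.48 in B6 control hearts. All but 1 of these 12 values were below the filter level. A second probe set of Aurka did not share the pattern, with 1.65 and 1.09 in RKIP-transgenic hearts, 1.08 and 5.21 in GRK-Inh-transgenic hearts, and 3.81 and 13.4 in B6 control hearts. Bub1 also had its highest mean in GRK-Inh-transgenic hearts, but these overlapped with control, while a second probe set of Bub1 gave 1.62 and 0.978 in RKIP-transgenic hearts, 16.8 and 19.7 in GRK-Inh-transgenic hearts, and 6.87 and 0.912 in B6 control hearts, with both GRK-Inh arrays above all others. On the probe sets that stood for the genes, Bub1b, Aurkb, Cdk1, Ccnb2, Plk1, Ccna2 and Cdc20 did not have their highest mean in GRK-Inh-transgenic hearts.

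Markers of B and plasma cells were also highest in GRK-Inh-transgenic hearts. The summed signal of the 5 measured of 7 listed markers was 244 and 235 in RKIP-transgenic hearts, 1182 and 1260.5 in GRK-Inh-transgenic hearts, and 338 and 301 in B6 control hearts. The immunoglobulin gene Ighm made up most of it, at 109 and 103 in RKIP-transgenic hearts, 848 and 837 in GRK-Inh-transgenic hearts, and 188 and 156 in B6 control hearts, whereas the B cell receptor subunits Cd79a and Cd79b had mean signals under 50. T cell markers (5 of 7 measured) and neutrophil markers (5 of 6 measured) had mean signals under 50 throughout, as had the 3 measured of 6 erythroid markers. The part of these cells in the Mki67, Top2a, Aurka and Birc5 values was not tested.

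**Figure D4:**
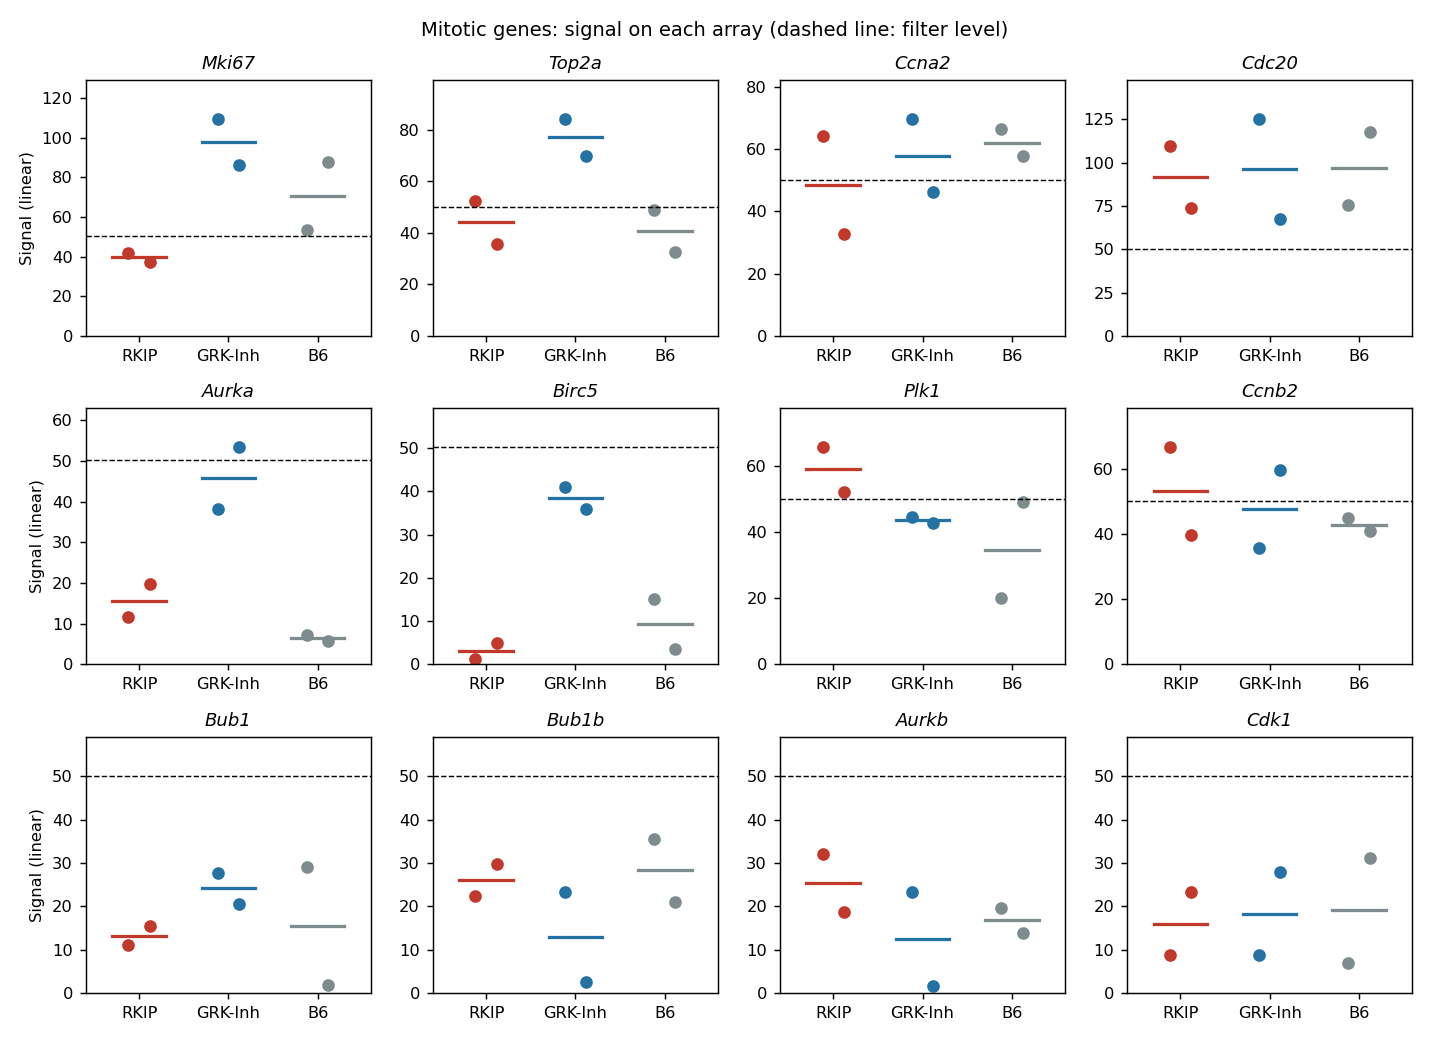
Linear signal of 12 mitotic and proliferation genes on each array (points) with the group mean (line), for hearts of the RKIP line, of the GRK-Inh line and of B6 controls. The dashed line is the filter level of 50.2, both GRK-Inh arrays lie above all others for Top2a, Aurka and Birc5, and for Mki67 they lie above the RKIP arrays and overlap with control.

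Summed signals of fibroblast, of smooth muscle and pericyte, and of endothelial markers were lower in both lines than in B6 control hearts, though not every marker was. Markers counted here as lower or higher are those called by limma against B6 control. Of all tested genes, 5.52% were called lower and 5.32% higher in RKIP-transgenic hearts, and 7.25% and 5.85% in GRK-Inh-transgenic hearts. The 10 fibroblast markers summed to 41577 and 41276 in RKIP-transgenic hearts and to 39144 and 38588 in GRK-Inh-transgenic hearts. In B6 control hearts they summed to 54999 and 57537. Of the 10, 8 were called lower in RKIP-transgenic and 9 in GRK-Inh-transgenic than in B6 control hearts, and 0 were called higher. Over 8 smooth muscle and pericyte markers it was 24705 and 24732 in RKIP-transgenic hearts, 25186 and 25478 in GRK-Inh-transgenic hearts, and 30362 and 29568 in B6 control hearts (6 and 4 of 8 lower, 0 higher). Over 9 endothelial markers it was 23661 and 24528 in RKIP-transgenic hearts, 25181 and 25572 in GRK-Inh-transgenic hearts, and 29092 and 28022 in B6 control hearts (3 of 9 lower in each line, 0 higher). Fabp4, which other cell types also express, made up most of the endothelial sum, at 18297 and 19203 in RKIP-transgenic hearts, 18997 and 19522 in GRK-Inh-transgenic hearts, and 22679.7 and 21564 in B6 control hearts. Of the other endothelial markers, Pecam1 (0.29), Kdr (0.22), Cldn5 (0.18) and Tie1 (0.02) had positive log2 fold changes in GRK-Inh-transgenic over B6 control hearts, none of them called. The 9 macrophage markers summed to 12364 and 11975 in RKIP-transgenic hearts, 10754 and 10785 in GRK-Inh-transgenic hearts, and 12637 and 13013 in B6 control hearts (1 and 3 of 9 lower, 0 higher), and the 8 heart muscle markers to 247601 and 246520.0 in RKIP-transgenic hearts, 238744 and 241230.0 in GRK-Inh-transgenic hearts, and 257357 and 248683 in B6 control hearts (1 and 0 of 8 lower). None of the fibroblast, smooth muscle, endothelial, macrophage or heart muscle markers had a mean signal under 50. Adipocyte markers (5 of 7 measured, Lep and Cidec under 50) were low in the RKIP line alone, summing to 1182 and 1239 in RKIP-transgenic hearts, 4229 and 3615 in GRK-Inh-transgenic hearts, and 3832 and 3659.7 in B6 control hearts, with 2 lower in RKIP-transgenic hearts and 0 called in GRK-Inh-transgenic hearts. The part of these cell types in the falls of Ccnd2, Cdk6 and Mcm7 was not tested.

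A wider list of 130 other cell cycle genes had 127 with a value, of which 82 passed the filter and were tested. In RKIP-transgenic against B6 control hearts 2 were higher (2.44%, beside 5.32% of all tested genes) and 3 lower (3.66%, beside 5.52%). In GRK-Inh-transgenic against B6 control hearts 7 were higher (8.54%, beside 5.85%) and 6 lower (7.32%, beside 7.25%). Between the lines 3 were higher (3.66%, beside 4.47%) and 2 lower (2.44%, beside 4.37%) in RKIP-transgenic hearts. Their median log2 fold changes were -0.07, -0.08 and 0.0047. Of the 10 tested genes of mitosis and cytokinesis, Cenpf fell in both lines and the others were not called. Of the 20 tested genes of the replication fork, 0 were called by limma in RKIP-transgenic hearts, and 1 was called higher and 1 lower in GRK-Inh-transgenic hearts.

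Cdkn1a, the p53-responsive CDK inhibitor gene, rose in GRK-Inh-transgenic hearts alone of the lines, with the lines themselves called different. It had 145 and 158 in RKIP-transgenic hearts, 385 and 339 in GRK-Inh-transgenic hearts, and 147 and 161 in B6 control hearts. The log2 fold change was 1.01 ± 0.13 over B6 control (adjusted p = 0.00043 by limma), -0.02 in RKIP-transgenic hearts (adjusted p = 0.962), and -1.03 ± 0.13 between the lines (adjusted p = 0.000645, RKIP-transgenic minus GRK-Inh-transgenic). Btg2, an antiproliferative immediate early gene, had 555 and 578 in RKIP-transgenic hearts, 1405 and 1224 in GRK-Inh-transgenic hearts, and 668 and 676 in B6 control hearts. It rose in GRK-Inh-transgenic hearts (0.92 ± 0.08, adjusted p = 4.9e-05) and was lower in the RKIP line than in the GRK-Inh line (-1.14 ± 0.08, adjusted p = 1.2e-05).

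Gadd45a, Gadd45b and Cdkn1c fell in the GRK-Inh line. Gadd45a, a stress sensor that can inhibit CDK1, had 775 and 846 in RKIP-transgenic hearts, 358 and 376 in GRK-Inh-transgenic hearts, and 921 and 815 in B6 control hearts. It fell in GRK-Inh-transgenic hearts (-1.14 ± 0.09, adjusted p = 1.6e-05 by limma), with RKIP-transgenic hearts at -0.09 (adjusted p = 0.578) and a difference of 1.04 between the lines (adjusted p = 4.8e-05). Its relative Gadd45b fell as well (-0.91 ± 0.18, adjusted p = 0.00658), though its control arrays stood apart at 332 and 562. The value was -1.25 without B6 array 1 and -0.57 without B6 array 2, and the call was lost when the variance was given no trend with signal (adjusted p 0.000986 to 0.0682 over the alternatives). Cdkn1c, an imprinted CDK inhibitor gene, had 560.2 and 609 in RKIP-transgenic hearts, 440.5 and 386 in GRK-Inh-transgenic hearts, and 736 and 769 in B6 control hearts. It fell in both lines (-0.34 ± 0.09, adjusted p = 0.0401 in RKIP-transgenic hearts, and -0.79 ± 0.09, adjusted p = 0.000262 in GRK-Inh-transgenic hearts), further in the GRK-Inh line by the direct comparison (0.45, adjusted p = 0.0124). The RKIP call held in 8 of 17 alternatives (adjusted p 0.0307 to 0.2) and was lost without any 1 of the RKIP and B6 arrays, and the difference between the lines was lost without RKIP array 2 and without GRK-Inh array 2 (adjusted p 0.0108 to 0.0908).

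**Figure D5:**
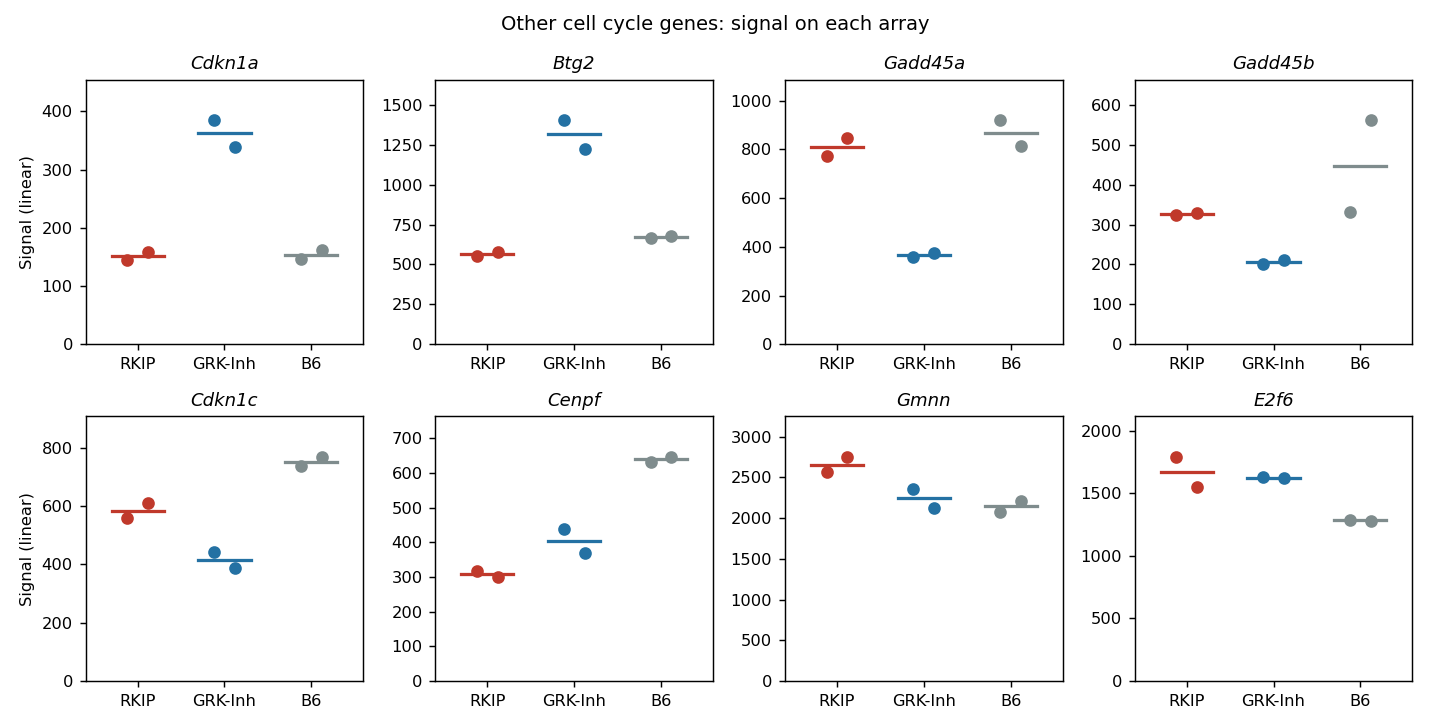
Linear signal of 8 other cell cycle genes on each array (points) with the group mean (line), for hearts of the RKIP line, of the GRK-Inh line and of B6 controls. Cdkn1a and Btg2 are highest and Gadd45a and Cdkn1c lowest on the GRK-Inh arrays, Cenpf is below control in both lines, and E2f6 is above it in both.

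Cenpf, a kinetochore and microtubule-binding protein gene, had the largest fall of the wider list in RKIP-transgenic hearts. It gave 316 and 299 in RKIP-transgenic hearts, 439.7 and 369 in GRK-Inh-transgenic hearts, and 632 and 647 in B6 control hearts, and no groups overlapped. The fall was -0.95 ± 0.10 (adjusted p = 0.000215 by limma) in RKIP-transgenic and -0.61 ± 0.10 (adjusted p = 0.00286) in GRK-Inh-transgenic hearts, and both calls held in every alternative tried. The alternatives do not cover any other probe sets of the gene. The difference between the lines did not pass (-0.34, adjusted p = 0.0681). Gmnn, which encodes the licensing inhibitor geminin, rose in RKIP-transgenic hearts, at 2564 and 2754 in RKIP-transgenic hearts, 2361 and 2127 in GRK-Inh-transgenic hearts, and 2077 and 2211 in B6 control hearts (0.30 ± 0.07 over B6 control, adjusted p = 0.0148). That call was lost without RKIP array 2 and without B6 array 1 (adjusted p 0.0123 to 0.131 over the alternatives).

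E2f6, a repressor of the E2F family, rose in both lines, to 1673 ± 168 in RKIP-transgenic and 1624 ± 3.89 in GRK-Inh-transgenic hearts, against 1283 ± 8.79 in B6 control hearts (mean signal ± SD, n = 2 each). The log2 fold changes were 0.37 (adjusted p = 0.00878) and 0.33 (adjusted p = 0.012 by limma). Tfdp2, a dimerisation partner of E2F factors, rose in GRK-Inh-transgenic hearts (0.32, adjusted p = 0.0205) and had 0.27 in RKIP-transgenic hearts (adjusted p = 0.0523). In GRK-Inh-transgenic hearts Sesn1, a p53-responsive gene, rose by 0.51 and Pold3, a subunit of DNA polymerase delta, by 0.66. There the phosphatase gene Cdc25a, which activates CDKs, changed by -0.52 and the fork protection gene Tipin by -0.37, both falls past the threshold. Ccng2, a cyclin linked to growth arrest, fell in RKIP-transgenic hearts (-0.28, adjusted p = 0.0231). These calls were less firm than that of Cenpf. Leaving out 1 array ended that of E2f6 in RKIP-transgenic hearts (RKIP array 1 or either B6 array, adjusted p 0.00503 to 0.0948 over all alternatives) and in GRK-Inh-transgenic hearts (any GRK-Inh or B6 array, adjusted p 0.00546 to 0.0903). It ended that of Ccng2 (any RKIP or B6 array, adjusted p 0.0166 to 0.126), Tfdp2 (GRK-Inh array 1 or either B6 array, adjusted p 0.0105 to 0.166) and Sesn1 (B6 array 2, adjusted p 0.00108 to 0.0854). It also ended that of Pold3 (either GRK-Inh array or B6 array 2, adjusted p 0.0152 to 0.126), Cdc25a (GRK-Inh array 2 or either B6 array, adjusted p 0.0165 to 0.105) and Tipin (any of the 6 arrays, adjusted p 0.0358 to 0.241).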

How the data were processed

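Per the labels, heart RNA was extracted with the RNeasy Midi kit and made into biotin-labelled cRNA for Affymetrix arrays. The authors deposited 1 linear intensity per probe set, made with GCOS (version not stated), per the submitters' processing notes. Leaving out 2% at each end, the deposited intensity values averaged 300.002 on each array. Background and summary steps are not given in the sources used here.

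Groups and replicate numbers came from the sample titles. Of 45101 probe sets, 64 controls were set aside, 34945 had 1 gene symbol, 932 several and 9160 none, and only those with 1 were used for genes. The names of 34741 of these matched RefSeq's symbol for the same gene identifier. The values were transformed as log2 of the intensity plus 50, which understates the change of low genes. Genes were tested at a mean log2 value of at least 6.65 (the median probe set, an intensity of 50.2). With limma 3.58.1 in R 4.3.3, group means were fitted to the 6 arrays (3 residual degrees of freedom), with moderated variances that follow signal, and tests were two-sided. The number of arrays limits the precision: the median SE was 0.115. The procedure was tested on simulated data.

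The genes and lists were chosen with earlier results of these data known. Array values are given for members called in any comparison, up to 2 of highest mean signal per role, and Mki67, Top2a, Cdk1, Ccnd1, Ccnd2, Ccnd3, Cdk4, Cdkn1b and Cdkn2c, and for others where stated. Of the wider list, up to 6 called genes per direction and comparison are named. Actin control probes gave 3′ over 5′ signal ratios of 2.92 to 3.03 on the arrays of the lines and 3.25 and 3.11 on the control arrays. Same-numbered replicates did not deviate together (correlations -0.035 to 0.026). Alternatives were quantile normalization, a common median for all arrays, 16 or 200 added before the log, a filter at the 75th percentile or none, no variance trend, robust moderation, only the arrays compared, the replicate number as a block, all probe sets, each array left out, and thresholds of 0.01 and 0.1. With all probe sets fitted, each gene was still read from the probe set that stood for it. That alternative thus does not show whether other probe sets of a gene give the same result. Other probe sets are described here for members alone. Figures were drawn with matplotlib 3.10.9.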

Additional observations from a re-analysis of the deposited data

Results flagged for a closer look

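Between the lines, 2 members were called different, so that their difference from the shared B6 controls was not alike: Cdkn2c with a log2 fold change of 0.36 and Mki67 with -0.72 (RKIP-transgenic over GRK-Inh-transgenic, limma). The Cdkn2c call held in 12 of 17 alternatives. That of Mki67 (adjusted p = 0.0497) held in 5 of the 16 that tested the gene, and its RKIP mean was below the filter level. Of the wider list, 5 genes were called in the same comparison. Gmnn had 0.24 (adjusted p = 0.0486), a call that held in 5 of 17 alternatives, and Cdkn1c had 0.45, a call that held in 14 of 17. Cdkn1a had -1.03, Btg2 -1.14 and Gadd45a 1.04, and these 3 calls held in every alternative in which the gene was tested. With 2 arrays per group, no single array was tested as standing apart from its group.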

How the results depend on the processing

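Of 29 calls of members and wider-list genes over the 3 comparisons, 10 held under every alternative that tested the gene, 19 were lost under at least 1, and 0 changed sign. The values below are given in the order RKIP-transgenic over B6 control, GRK-Inh-transgenic over B6 control, RKIP-transgenic over GRK-Inh-transgenic. All genes called numbered 1220, 1474 and 995. They numbered 522, 771 and 418 at a threshold of 0.01, and 293, 726 and 251 without a variance trend. At a threshold of 0.1 there were 2244 and 1510 in the last 2 comparisons, GRK-Inh-transgenic hearts had 2324 calls among all probe sets, and the comparison of the lines had 619 with no filter. Leaving out 1 array gave 624 to 1137, 904 to 1484 and 476 to 876.

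Members called numbered 3, 1 and 2. In RKIP-transgenic hearts there was 1 at a threshold of 0.01, with no filter, with all probe sets and with the replicate block, and 0 without a trend. GRK-Inh-transgenic hearts had 2 at a threshold of 0.1 and 2 with no filter, the latter being Ccnd2 and Aurka. The comparison of the lines also had 2 with no filter, with Birc5 in place of Mki67. Aurka and Birc5 are under the filter level, and these calls of them are not read as results. Between the lines there were 0 at 0.01 and without a trend, and 1 with all probe sets, a filter at the 75th percentile, an offset of 200, only the arrays compared, and the replicate block. Leaving out 1 array gave 1 to 2, 1 to 1 and 0 to 2. Ccnd2 was the member called in RKIP-transgenic hearts in each of 16 of 17 alternatives, all but the variance without a trend. The wider list had 5, 13 and 5 calls, 2, 7 and 3 at 0.01 and without a trend, 12 and 10 at 0.1 in the first and last comparison, and 2 to 7, 7 to 12 and 3 to 6 with 1 array left out.

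The members' median was -0.14, -0.088 and -0.098. It was -0.043 and -0.14 in the last 2 comparisons with arrays shifted to one median. In the first 2 it was -0.11 and -0.12 with a filter at the 75th percentile, -0.053 and -0.065 with no filter, and -0.067 and -0.069 with an offset of 200, and in the second -0.10 with an offset of 16. Leaving out 1 array gave -0.17 to -0.12, -0.10 to -0.047 and -0.15 to -0.0089. The cause of these shifts was not tested. With the replicate number as a block, all genes called numbered 1153, 1436 and 907, and the calls of Cdk6, Mcm7 and Cdkn1c in RKIP-transgenic hearts and of Mki67 and Gmnn between the lines were lost, where replicates share only a number. Signals near or under the filter level limit what can be said of the mitotic genes.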
